A study of Mus musculus with 24 samples.

Results

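The genes described here encode the mouse receptors that bind the constant (Fc) part of IgG antibodies, with their shared signalling chain and the kinase downstream. They are Fcgr1, Fcgr2b, Fcgr3, Fcgr4, Fcer1g, Fcgrt and Syk, chosen by symbol from a table of 16996 genes, and all 7 were measured. The choice used no expression value.

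RNA was sequenced from CD45+ cells, that is leukocytes, which magnetic beads enriched from EMT6-hHER2 tumors. EMT6-hHER2 is a mouse mammary carcinoma line carrying human HER2 by transposition. It was grown from 1 sorted cell, so that every tumor stems from the same clone. Wild-type female Balb/c mice, labelled as 10-12 weeks of age, received these cells in the mammary fat pad, and treatment followed when tumors had reached 80 mm3. Of the 4 groups, 1 was left untreated. The others received 1 intravenous dose of trastuzumab (20 mg/kg), of T-DM1 (15 mg/kg) or of T-PNU (1 mg/kg). Trastuzumab is an antibody against human HER2. T-DM1 is trastuzumab linked to the microtubule poison DM1, and T-PNU is trastuzumab linked to the anthracycline derivative PNU. The 3 treated groups thus shared the antibody backbone, at doses that differed. All tumors were taken on day 10. Each group held 6 mice with 1 library per mouse, 24 in all, so that p-values measure the spread between mice. The mice are named here by the labels' prefix (A1 to H3). Numbers in the column headings, whose meaning the labels do not give, ran in a separate block for each of the 4 groups. The untreated block lay far from the others. Block and treatment thus cannot be told apart in any comparison.

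Fc gamma receptors connect antibody-coated targets to leukocytes. FcγRI (Fcgr1), FcγRIII (Fcgr3) and FcγRIV (Fcgr4) are activating receptors, whose ligand-binding chains pair with the gamma chain Fcer1g. Its phosphorylated ITAM motif recruits the kinase Syk, and phagocytosis, oxidative burst or cytotoxicity can follow. FcγRIIB (Fcgr2b) is the inhibitory receptor and recruits the phosphatase SHIP1, while FcRn (Fcgrt) binds IgG inside endosomes and returns it to the surface. In tumors these receptors sit mainly on macrophages, monocytes, neutrophils and natural killer (NK) cells, and Fcgr2b also on B cells.

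On GRCm38, Fcgr2b (chr1:170958617-170976547, minus strand), Fcgr4 (chr1:171018920-171029761, plus), Fcgr3 (chr1:171051174-171064935, minus) and Fcer1g (chr1:171229572-171234365, minus) lie close together on chromosome 1. Fcgr1 (chr3:96282909-96293969, minus), Fcgrt (chr7:45092990-45103851, minus) and Syk (chr13:52583173-52648792, plus) lie elsewhere. Fcgr2b, Fcgr3 and Fcgr4 have closely similar ligand-binding domains, and the sources used here do not say how reads that match several of them were counted, so their levels are uncertain to that extent.

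Because several of the receptors varied together, the 250 bases before their annotated starts were searched for a motif known from myeloid genes, the core of the site of the transcription factor PU.1 (GAGGAA, or TTCCTC on the other strand). The sequences are from RefSeq on GRCm38.p6, which held 9 windows for the 7 genes. All windows of Fcgr2b, Fcgr3 and Syk lie inside the gene spans given above, so they need not precede the most upstream start. Annotated exons covered 187 of the 250 bases for Fcgr2b, 27 in the printed Fcgr3 window and all 250 in the more upstream Syk window. The windows of Fcgr1, Fcgr4 and, of its pair of starts, the more downstream start of Fcgr3 follow, 5′ to 3′, with matches in capitals.

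Fcgr1, chr3:96293970-96294219, minus strand: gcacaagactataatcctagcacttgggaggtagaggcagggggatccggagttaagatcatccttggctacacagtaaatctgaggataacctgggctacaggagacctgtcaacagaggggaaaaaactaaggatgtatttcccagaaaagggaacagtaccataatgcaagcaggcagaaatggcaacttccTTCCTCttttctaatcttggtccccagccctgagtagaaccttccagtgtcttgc

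Fcgr3, chr1:171059395-171059644, minus strand: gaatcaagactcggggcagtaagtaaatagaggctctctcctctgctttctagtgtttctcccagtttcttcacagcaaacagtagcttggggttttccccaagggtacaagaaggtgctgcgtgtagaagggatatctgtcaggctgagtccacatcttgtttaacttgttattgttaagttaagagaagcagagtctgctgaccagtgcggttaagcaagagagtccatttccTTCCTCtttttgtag

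Fcgr4, chr1:171018676-171018925, plus strand: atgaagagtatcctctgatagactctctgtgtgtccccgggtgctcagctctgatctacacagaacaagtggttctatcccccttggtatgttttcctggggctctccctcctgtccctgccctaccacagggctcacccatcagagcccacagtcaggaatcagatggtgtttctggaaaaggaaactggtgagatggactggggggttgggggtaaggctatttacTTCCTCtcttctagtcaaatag

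The Fcgr1 window held 1 PU.1 match (TTCCTC at position -55 from the start), and 23.3% of 32851 promoter windows of the same length held at least 1. The core was also found in the windows of Fcgr3 (at -15 in the one printed) and Fcgr4 (at -22). Of the pair of Syk windows, the more downstream held it and the other did not. Matches hence stood in 5 of the 9 windows and in 4 of the 7 genes. The pair of Fcgr3 windows overlap for most of their length, and their matches (at -15 and -6) are the same letters counted in each. The 23.3% is a rate per window, whereas Fcgr3 and Syk each had a pair of windows. No match stood in the windows of Fcgr2b, Fcer1g and Fcgrt. The matches are letters in a window, not shown sites of binding.

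The deposited values are log2 normalized expression, for which the read depth per library is unknown. All members except Fcgrt were abundant. Mean log2 values over the 24 libraries ran from 13.19 (Fcgr4) to 13.84 (Fcgr2b) in those 6 genes, above those of at least 96.3% of all genes, and Fcgrt stood at 11.58, above 85.4%. Per kilobase of exon, the mean log2 level fell in the order Fcer1g (13.89), Fcgr4 (12.86), Fcgr3 (12.74), Fcgr1 (12.34), Fcgr2b (11.30), Fcgrt (10.51) and Syk (10.28). The gap between Fcgr4 and Fcgr3 in that order was smaller than their SD between libraries (0.52 and 0.36), whereas that between Fcgrt and Syk (SD 0.36 and 0.22) exceeded the SD of Syk but not that of Fcgrt.

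Marker genes fitted the labelled source. The leukocyte markers Ptprc (CD45), Laptm5, Cd53 and Coro1a had mean log2 values from 13.66 to 14.69, and the macrophage markers Csf1r, Cd68, C1qa and Lyz2 from 14.03 to 17.49. RNA of other cells was present too, with Col1a2 at 15.16 and Krt8 at 13.01. NK cell markers were low (Ncr1 6.93, Klrb1c 6.08), as was the mast cell partner of Fcer1g, Fcer1a (4.87). No marker was at 0 in these log2 values. Untreated B1 and C1 stood apart from the other mice in most of the results that follow. The level of 12 macrophage markers, given as the mean log2 deviation of the list from its averages over all libraries, was -0.94 in B1 and 0.86 in C1, against -0.04 to 0.20 in the other 4 untreated mice. B1 also had high T cell and B cell marker levels (1.45 and 1.88). Both are among the 4 mice that the study's heatmaps do not label, with trastuzumab E2 and B3, and no reason was found in the sources used here. Both were kept, and the group comparisons are also given without them where calls changed.

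The high-affinity receptor gene Fcgr1 was highest in T-PNU mice. Its log2 value had a lowest, median and highest of 13.96, 14.06 and 14.23 in T-PNU mice. The same values were 13.17, 13.67 and 13.97 in T-DM1 mice and 13.45, 13.55 and 13.86 in trastuzumab mice. Untreated mice spanned 12.60 to 14.64 around a median of 13.48. All T-PNU mice lay above all trastuzumab mice, and the untreated group was split between B1 far below and C1 far above 4 closely grouped mice.

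Fcgr3, which is the low-affinity activating receptor of macrophages and NK cells, was lowest in T-DM1 mice. Its log2 value ran from 12.77 to 13.35 there, with a median of 13.18. It ran from 13.38 to 14.01 (median 13.72) in T-PNU mice and from 13.49 to 13.83 (median 13.54) in trastuzumab mice. All T-DM1 mice thus lay below all mice of the other 2 antibody groups, and of the untreated mice (12.91 to 14.44, median 13.65) B1 alone lay within the T-DM1 range.

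Fcgr4, a receptor of myeloid cells with preference for IgG2a and IgG2b, varied most among the 7 genes (SD 0.52 over 24 libraries). T-PNU mice ran from 13.29 to 13.83 with a median of 13.63, and T-DM1 mice from 12.43 to 13.10 with a median of 12.81. The untreated mice had a median of 12.90 and ranged from 12.31 to 14.46. All 6 T-PNU mice exceeded all T-DM1 mice and 5 of the 6 untreated mice, the exception being C1. Trastuzumab mice (12.55 to 13.70, median 13.46) reached into both conjugate groups.

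The inhibitory receptor gene Fcgr2b had its lowest median in T-DM1 mice (13.58, range 13.16 to 13.79). Medians of the other groups were higher, at 13.93 for T-PNU (13.51 to 14.33), 13.94 for trastuzumab (13.82 to 14.02) and 14.12 for untreated mice (13.05 to 14.64). Every T-DM1 mouse lay below every trastuzumab mouse. T-PNU mouse C2 (13.51) lay within the T-DM1 range and the other 5 T-PNU mice lay above it.

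The shared chain Fcer1g ran from 13.54 to 14.06 (median 13.97) in T-PNU, from 13.07 to 13.79 (median 13.55) in T-DM1 and from 13.68 to 13.88 (median 13.71) in trastuzumab mice. Untreated mice had the same median (13.71) and spanned 12.72 to 14.36. Each pair of groups overlapped.

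Syk had the narrowest spread of the 7 genes (SD 0.22 over 24 libraries). Medians were 13.66 in T-PNU (13.52 to 13.96), 13.29 in T-DM1 (13.20 to 13.56), 13.55 in trastuzumab (13.35 to 13.89) and 13.37 in untreated mice (13.18 to 13.88). Of the T-DM1 mice, C3 alone reached into the T-PNU range, which also held trastuzumab E2, H2 and B3 and untreated C1.

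For Fcgrt, the T-PNU median was 11.79 (11.55 to 12.18) and the T-DM1 median 11.39 (11.26 to 11.53), again without overlap. The trastuzumab and untreated medians were 11.62 (11.38 to 11.99) and 11.40 (10.57 to 12.39). Both of these groups overlapped T-PNU and T-DM1 mice.

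**Figure D1:**
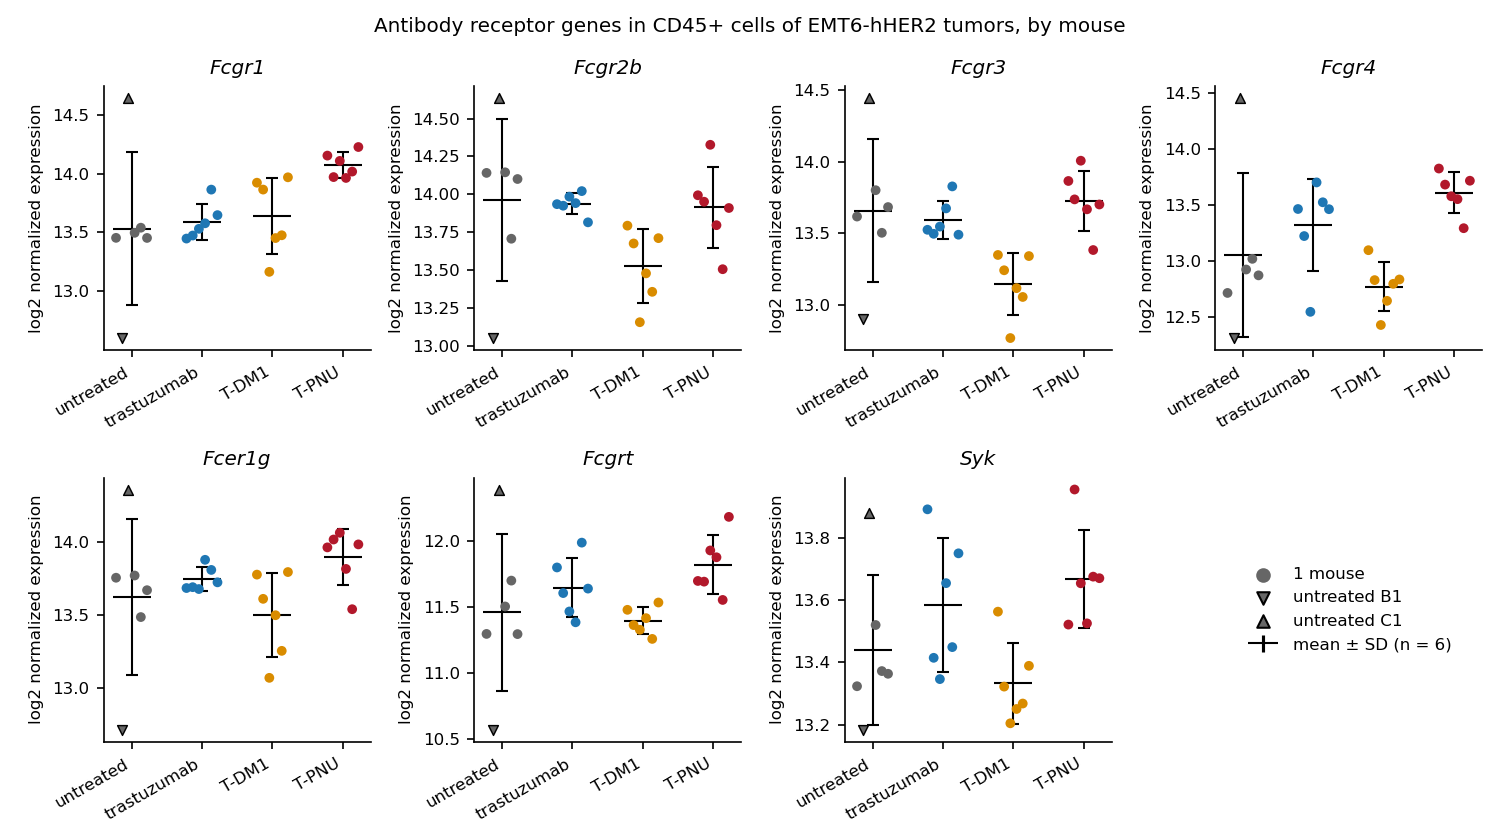
Log2 normalized expression (y axis, a separate scale per gene) of the 7 genes in each of 24 mice, by treatment group (x axis), with black bars for the mean ± SD (n = 6) and triangles for untreated B1 (down) and C1 (up). T-PNU mice lie above all T-DM1 mice for Fcgr3, Fcgr4 and Fcgrt, and B1 and C1 set the span of the untreated group.

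The first comparison was between the conjugates, which share the antibody and differ in payload and in dose. The study also describes T-PNU tumors as responding, some of them weakly, and tumors of the other groups as not responding. Payload, dose and tumor response thus cannot be told apart. All 7 genes were higher on average in T-PNU than in T-DM1 mice, with a median log2 difference of 0.42 against 0.03 over all genes. Of the 7, 3 passed an adjusted p of 0.05 (limma, Benjamini-Hochberg over all genes), beside 29.8% of all genes. By direction, 12.4% of all genes were called higher in T-PNU mice and 17.4% lower. Fcgr4 was higher by 0.84 ± 0.24 on the log2 scale (SE, 1.78-fold, adjusted p = 0.0136). Fcgr3 was higher by 0.58 ± 0.16 (adjusted p = 0.0123), and Syk by 0.33 ± 0.11 (1.26-fold, adjusted p = 0.0253). The differences of Fcgr1, Fcgr2b, Fcer1g and Fcgrt were 0.39 to 0.43 with adjusted p from 0.0837 to 0.11. Each had an unadjusted p under 0.05, as had all 7 members, beside 42.9% of all genes. The groups did not overlap in 3 members (Fcgr3, Fcgr4 and Fcgrt), beside 13.2% of all genes. Calls were thus frequent among genes of all kinds in this comparison.

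These values depended on the untreated mice through the shared estimate of spread. Without B1, all 7 members passed (34.6% of all genes), without C1, 6 did (32.9%), and without both, all 7 did (37.5%), while the differences themselves were the same. The call for Syk was lost without T-PNU H1 (adjusted p = 0.0777), T-DM1 E3 (0.0524) or T-DM1 F3 (0.0553). Fcgr3 and Fcgr4 passed whichever single mouse was left out.

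Macrophage markers moved with this comparison, and so did leukocyte and NK cell markers. Of 4 general leukocyte markers, 3 were higher in T-PNU mice (Ptprc 0.76 ± 0.19, Cd53 0.68 ± 0.18 and Laptm5 0.40 ± 0.10), and the level of that list ran from -0.44 to -0.03 in T-DM1 and from -0.12 to 0.75 in T-PNU mice. All 5 NK cell markers were higher as well. Of 12 macrophage markers, 8 were higher and none lower, with Mertk at 0.93 ± 0.21, C1qb at 0.83 ± 0.19 and Adgre1 at 0.86 ± 0.22 (log2 difference ± SE). The level of the macrophage list ran from -0.67 to -0.13 in T-DM1 and from -0.11 to 0.50 in T-PNU mice. Of 12 markers of tumor, fibroblast and endothelial cells, 6 were lower and 4 higher in T-PNU mice, with Col1a1 at -1.62 ± 0.29, Col3a1 at -1.38 ± 0.22 and Pecam1 at 0.72 ± 0.19, and the part of these other cells, leukocyte RNA as a whole included, in the member values was not tested. When the macrophage marker level of each mouse entered the fit, no member passed in limma, beside 39.0% of all genes, and 2 had an unadjusted p under 0.05. Fcgr3 then differed by 0.03 ± 0.07, Fcgr4 by 0.17 ± 0.20 and Syk by 0.12 ± 0.11. Fcgr1, Fcgr2b, Fcer1g and Fcgrt took the opposite sign, with differences of -0.23 ± 0.12, -0.21 ± 0.08, -0.20 ± 0.08 and -0.16 ± 0.12. The marker levels of these groups did not overlap, so these differences rest on the fitted slope, not on mice at a shared level. Untreated B1 (-0.94) and C1 (0.86) had the most extreme levels and entered every fit with that covariate. It was not repeated without them. In RNA of a mixed population, fewer cells of a type and less RNA per cell cannot be told apart.

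**Figure D2:**
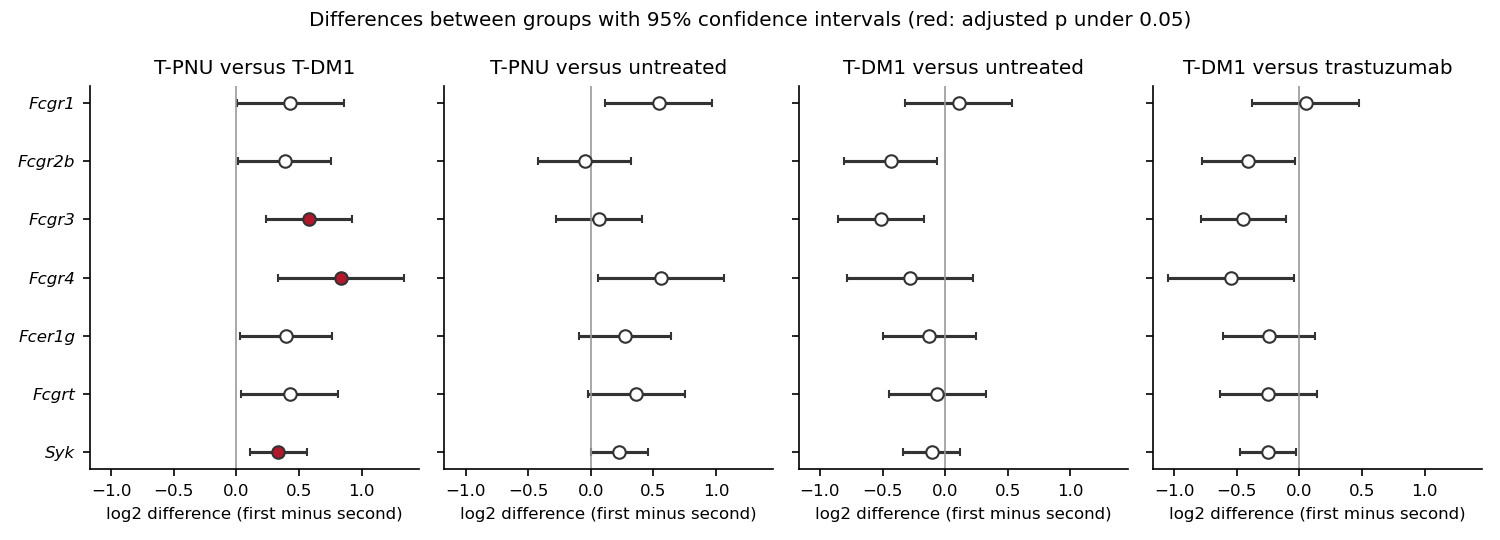
Log2 difference of the group means (x axis, first group minus second) of each gene in 4 comparisons over 24 libraries, with red points where the adjusted p was under 0.05. Bars are 95% confidence intervals from the standard errors of limma and 20 residual degrees of freedom. Fcgr3, Fcgr4 and Syk in T-PNU against T-DM1 are the 3 red points.

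Against untreated mice, the T-PNU group showed its largest mean differences in Fcgr4 (0.56 ± 0.24, SE) and Fcgr1 (0.54 ± 0.20), while Fcgr2b (-0.05 ± 0.18) and Fcgr3 (0.07 ± 0.16) were near 0. No member passed the adjusted test in limma, beside 0.188% of all genes. An unadjusted p under 0.05 was found for 3 (Fcgr1, Fcgr4 and Syk), beside 24.8% of all genes. Adjusted p was 0.118 for Fcgr1, 0.16 for Fcgr4 and 0.198 for Syk. This outcome turned on the untreated mouse C1, which was highest of all 24 in Fcgr1, Fcgr2b, Fcgr3, Fcgr4, Fcer1g and Fcgrt. Without C1, 4 members passed (17.2% of all genes), namely Fcgr1 (0.76 ± 0.15, adjusted p = 0.00492), Fcgr4 (0.84 ± 0.16, 0.00448), Fcgrt (0.55 ± 0.15, 0.0184) and Syk (0.31 ± 0.10, 0.0319). Without both B1 and C1, 3 did (25.4% of all genes), namely Fcgr1 (0.59 ± 0.12, adjusted p = 0.00799), Fcgr4 (0.73 ± 0.16, 0.00949) and Fcgrt (0.37 ± 0.12, 0.0302). Without B1 alone, 0 passed in limma and 0 had an unadjusted p under 0.05, with Fcgr1 at 0.36 ± 0.17. With the macrophage marker level in the fit, 1 member passed (1.87% of all genes), which was the inhibitory Fcgr2b, lower in T-PNU mice (-0.27 ± 0.07, adjusted p = 0.0499).

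In T-DM1 against untreated mice, the mean log2 differences furthest from 0 were those of Fcgr3 (-0.51 ± 0.16) and Fcgr2b (-0.43 ± 0.18), and that of Fcgr1 was 0.11 ± 0.20. No member passed in limma, beside 6.27% of all genes. An unadjusted p under 0.05 was found for 2 (Fcgr3 and Fcgr2b, adjusted p of 0.0612 and 0.141), beside 23.4% of all genes. Without B1, which had the lowest untreated values, 2 members passed (5.92% of all genes), Fcgr3 at -0.66 ± 0.14 (adjusted p = 0.00918) and Fcgr2b at -0.62 ± 0.14 (0.0145). Fcgr3 alone passed without T-DM1 mouse H3 (-0.55 ± 0.17, adjusted p = 0.0498, 8.85% of all genes) and without both B1 and C1 (-0.50 ± 0.11, 0.0276, 2.02%). With the macrophage marker level in the fit, 3 members passed (16.4% of all genes), all of them higher in T-DM1 mice. These were Fcgr1 (0.53 ± 0.10, adjusted p = 0.00261), Fcer1g (0.25 ± 0.07, 0.0219) and Fcgrt (0.31 ± 0.10, 0.0461). B1 was the only untreated mouse whose macrophage marker level did not lie above that of all T-DM1 mice. Of the 12 macrophage markers, C1qb alone was lower in T-DM1 than in untreated mice (-0.75 ± 0.19, adjusted p = 0.0227) in the fit without that level, and the monocyte marker Ly6c2 was higher (1.05 ± 0.20, 0.00665).

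For trastuzumab against untreated mice, the largest mean difference was in Fcgr4 (0.27, with a 95% confidence interval of -0.23 to 0.77) and the smallest in Fcgr2b (-0.03, -0.40 to 0.35). No member passed in limma, beside 0.259% of all genes, and none had an unadjusted p under 0.05, beside 8.77% of all genes. The same was found for the mean of the 3 antibody groups against untreated mice. There 0 members passed (0.718% of all genes) and 0 had an unadjusted p under 0.05 (14.7% of all genes). Those mean differences ran from -0.17 ± 0.15 (Fcgr2b) to 0.24 ± 0.17 (Fcgr1). These values too turned on B1 and C1, though no member passed without either or both in limma. Without C1, 3 members had an unadjusted p under 0.05 in trastuzumab against untreated mice and 4 in the mean of the antibody groups. Without B1 these counts were 0 and 2, and without both 1 and 2. Fcgr4 in trastuzumab mice differed by 0.55 ± 0.16 without C1 (adjusted p = 0.14), 0.12 ± 0.24 without B1 and 0.44 ± 0.16 without both. For the antibody groups together, Fcgr1 differed by 0.46 ± 0.13 without C1 (adjusted p = 0.0566), 0.05 ± 0.15 without B1 and 0.28 ± 0.11 without both. All comparisons with untreated mice share the same 6 libraries.

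Against trastuzumab, Fcgr1 was the member that differed most in T-PNU mice, by 0.48 ± 0.20. No member passed in limma (adjusted p = 0.217 for Fcgr1, 0.00588% of all genes passed) and 1 had an unadjusted p under 0.05, beside 19.5% of all genes. Fcgr1 was the 1 member without overlap between these groups, beside 1.31% of all genes. Without B1 and C1 it passed, with the same difference (adjusted p = 0.0371, 2.18% of all genes). The other 6 members differed by -0.02 to 0.29.

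T-DM1 against trastuzumab gave lower means for Fcgr4 (-0.55 ± 0.24), Fcgr3 (-0.45 ± 0.16), Fcgr2b (-0.41 ± 0.18) and Syk (-0.25 ± 0.11) and no lower mean for Fcgr1 (0.05 ± 0.20). No member passed in limma, beside 0.647% of all genes, and these 4 had an unadjusted p under 0.05, beside 15.3% of all genes. Fcgr2b and Fcgr3 did not overlap between the groups, beside 2.50% of all genes. Without B1 and C1, 2 members passed (3.35% of all genes), which were Fcgr3 (adjusted p = 0.0197) and Fcgr4 (0.0415). With the macrophage marker level in the fit, the 1 member that passed was Fcgr1, higher in T-DM1 mice by 0.61 ± 0.11 (adjusted p = 0.00495, 3.41% of all genes). That level did not overlap between T-DM1 (-0.67 to -0.13) and trastuzumab mice (0.07 to 0.25), so this difference rests on the fitted slope. The doses of these agents differ, and no comparison here is at a matched dose.

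A test for any difference among the 4 group means called 1 member, Fcgr3 (adjusted p = 0.0441), beside 18.8% of all genes. Fcgr4 had an adjusted p of 0.0603 and Syk of 0.0872, and the other 4 from 0.142 to 0.289. The call of Fcgr3 was lost without any 1 of 17 mice. It was kept without E1, C2, E2, G2 or H3, while 3 members passed without B1 and 5 without C1. Shares of all genes in these refits are not given, so the counts do not set the members apart.

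The balance between receptors was also taken within each mouse, as the difference of 2 log2 values, in which a shift common to both genes drops out. Fcgr1 minus Fcgr2b was -0.43 ± 0.29 (SD, n = 6) in untreated, -0.35 ± 0.15 in trastuzumab, 0.11 ± 0.11 in T-DM1 and 0.16 ± 0.25 in T-PNU mice. Every T-DM1 mouse (-0.03 to 0.26) lay above every trastuzumab mouse (-0.49 to -0.16). Relative to Fcgr2b, 18.2% of all genes were higher in every T-DM1 than in every trastuzumab mouse, and Fcgr1 was the 1 member among them.

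Fcgr1 minus Fcgr3 gave -0.13 ± 0.20 in untreated, -0.00 ± 0.09 in trastuzumab, 0.50 ± 0.13 in T-DM1 and 0.35 ± 0.20 in T-PNU mice. T-DM1 mice (0.33 to 0.63) did not overlap untreated (-0.30 to 0.20) or trastuzumab mice (-0.10 to 0.16). Relative to Fcgr3, 7.66% of all genes were higher in every T-DM1 than in every untreated mouse, among them the members Fcgr1 and Fcer1g, and 24.8% were higher than in every trastuzumab mouse, among them Fcgr1. Relative to Fcgr2b, Fcer1g was the 1 member higher in every T-DM1 than in every untreated mouse, beside 2.39% of all genes. The mean of Fcgr1 relative to both low-affinity receptors was thus higher in either conjugate group than in untreated or trastuzumab mice.

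Fcgr4 minus Fcgr2b was highest in T-PNU mice (-0.31 ± 0.22), against -0.91 ± 0.46 in untreated, -0.62 ± 0.43 in trastuzumab and -0.76 ± 0.12 in T-DM1 mice. T-PNU mouse C2 (-0.75) lay within the T-DM1 range (-0.87 to -0.56) and the other 5 lay above it. Fcgr3 minus Fcgr2b moved least, from -0.38 ± 0.05 in T-DM1 to -0.19 ± 0.08 in T-PNU mice, and these groups overlapped as well. These differences are given without a test.

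**Figure D3:**
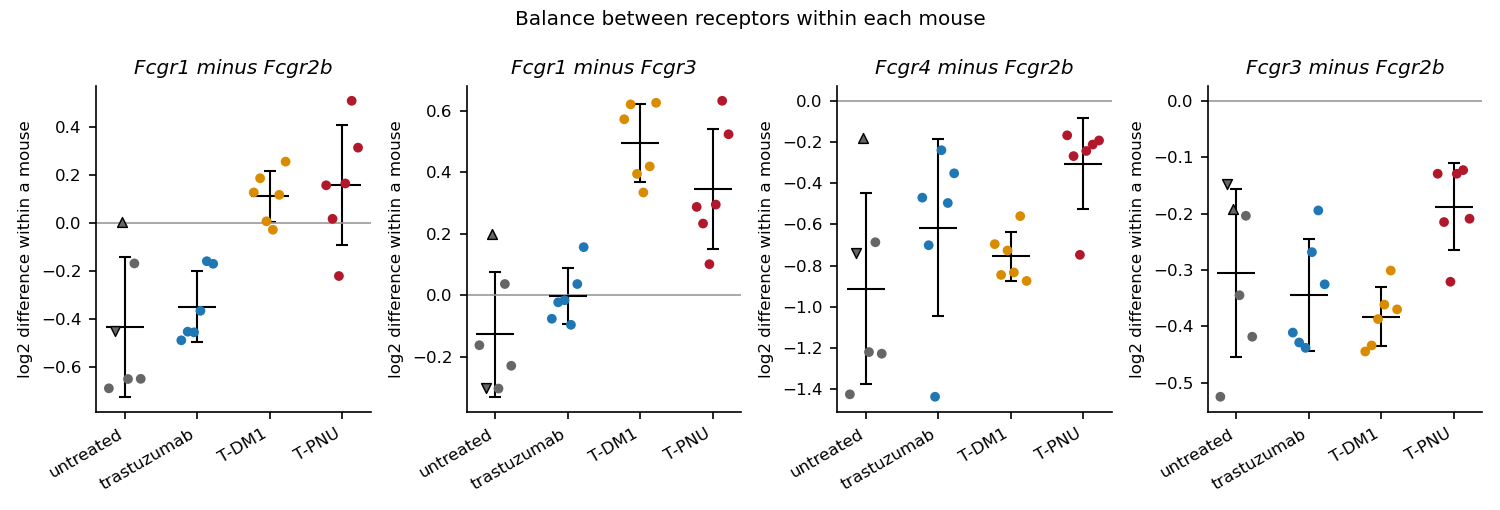
Difference of 2 log2 values within a mouse (y axis) for 4 pairs of receptor genes, by group (x axis), with bars for the mean ± SD (n = 6) and triangles for untreated B1 (down) and C1 (up). Fcgr1 minus Fcgr3 lies between 0.33 and 0.63 in T-DM1 mice, above all untreated and trastuzumab mice, and Fcgr4 minus Fcgr2b is highest in T-PNU mice.

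Across the 24 mice the members followed the macrophage marker level to different degrees. Pearson's r was 0.95 for Fcgr3, 0.92 for Fcgr2b and for Fcer1g, 0.86 for Fcgrt, 0.83 for Fcgr4, 0.75 for Fcgr1 and 0.72 for Syk. The permutation p was 1e-05, the smallest that 100000 resamples give, for all but Syk (7e-05), and the adjusted p over 28 relations was at most 0.000178. Spearman's rho ran from 0.57 (Fcgr1, p = 0.00372, adjusted 0.00744) to 0.92 (Fcgr3). Without the 2 mice farthest from the median marker level, r was 0.94 for Fcgr3 but 0.51 for Fcgr1. After subtraction of the group means, r was 0.91 for Fcgr1 and 0.58 for Syk (permutation p = 0.00032 and 0.0127, adjusted 0.00179 and 0.0253). This step kept untreated B1 and C1, whose marker levels were -0.94 and 0.86 and whose Fcgr1 values were 12.60 and 14.64. Whether the relation holds within groups without these mice was not tested. Points share their library, so that a common shift in the makeup of a library enters both axes.

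With 14 genes of the interferon-gamma response, r was 0.80 for Fcgr4 (rho 0.80, permutation p = 1e-05 for each, adjusted 3.5e-05 and 9.33e-05) and 0.65 for Syk (p = 0.00055, rho 0.68, p = 0.00043, adjusted 0.00118 and 0.00129). Without the 2 farthest mice these were 0.79 and 0.65, and after subtraction of group means 0.73 and 0.52 (adjusted p = 0.0086 and 0.0546). For Fcgrt, r was 0.47 (permutation p = 0.0193, adjusted 0.0319) and rho 0.53 (adjusted 0.0173), with an r of 0.46 without the 2 farthest mice and 0.31 after subtraction of group means (adjusted p = 0.32). For Fcgr2b, r with this list was 0.20 (rho 0.14, permutation p = 0.357 and 0.525, adjusted 0.40 and 0.565). The r values of Fcgr1, Fcgr3 and Fcer1g were 0.42, 0.39 and 0.34 (adjusted permutation p = 0.0587, 0.0827 and 0.128). Their rho values were 0.43, 0.38 and 0.45 (adjusted 0.0598, 0.0974 and 0.0466). After subtraction of group means, r was 0.31, 0.23 and 0.16 (adjusted 0.31, 0.444 and 0.609). With 7 neutrophil markers, r ran from 0.55 (Fcgr2b) to 0.78 (Syk), with adjusted p of at most 0.00913, and rho from 0.29 (Fcgr2b, adjusted p = 0.205) to 0.78 (Syk, 0.00016). Without the 2 farthest mice, these r values lay between 0.45 and 0.71. With 11 T cell markers, r ran from -0.37 (Fcgr2b) to 0.43 (Syk), and the smallest adjusted p of r was 0.0561 (Syk), with a rho of 0.46 (0.0432) and an r of 0.59 without the 2 farthest mice. After subtraction of group means, r with the T cell list was -0.56 for Fcgr2b (permutation p = 0.0118, adjusted 0.0253) and 0.30 for Syk (adjusted 0.297).

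**Figure D4:**
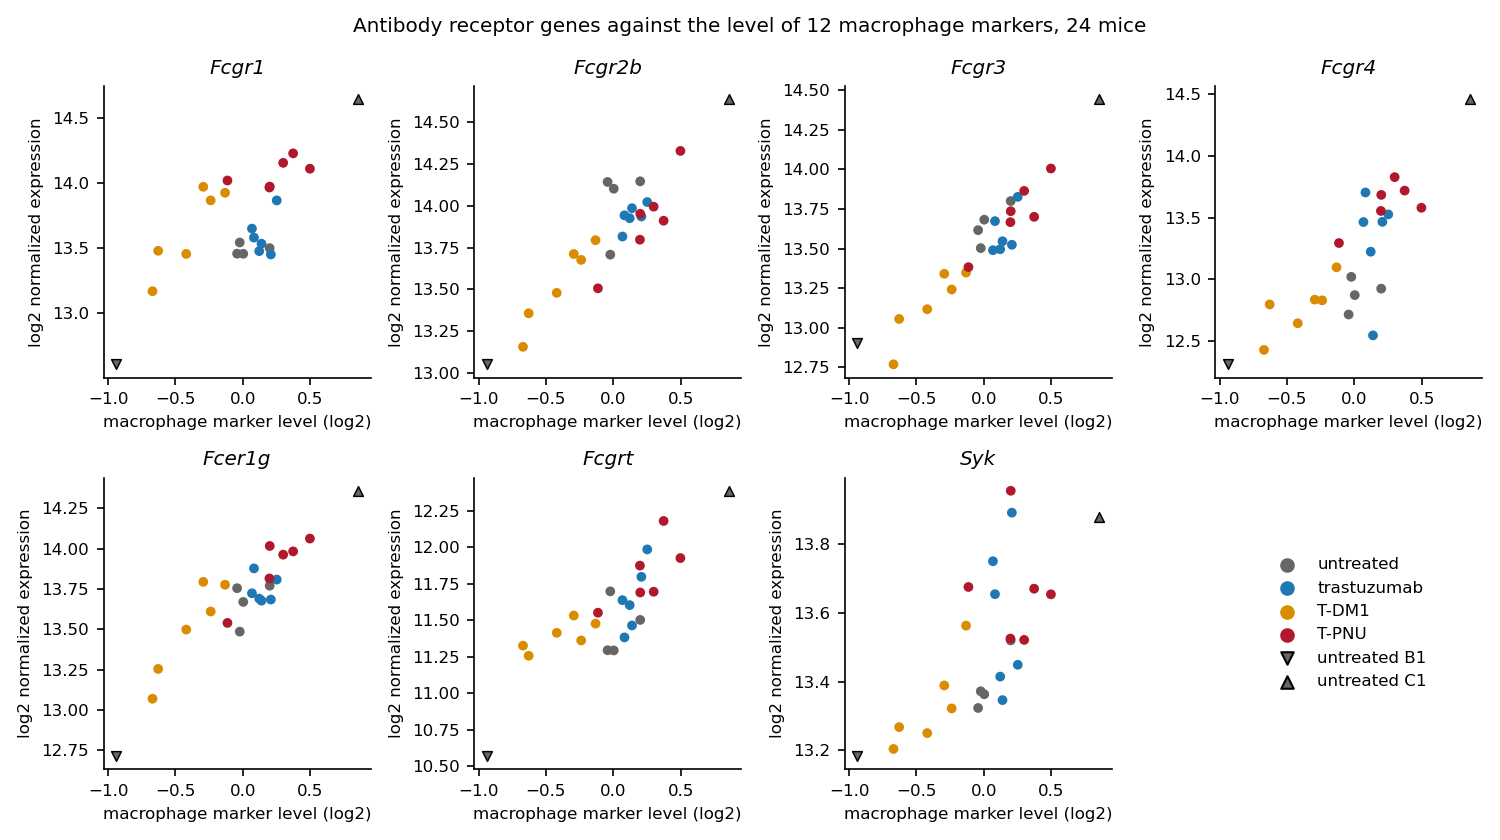
Log2 normalized expression of each gene (y axis) against the mean log2 deviation of 12 macrophage markers (x axis) in 24 mice, colored by group, with triangles for untreated B1 (down) and C1 (up). Fcgr3 lies closest to a single line (r = 0.95), whereas for Fcgr1 (r = 0.75) all T-PNU mice lie above the untreated mice A1, B1, D1, E1 and F1.

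The members also differed in which genes had the most similar pattern over the 24 mice. Nearest to Fcgr1 were Ifi44l (r = 0.96), Phf11b (0.96) and Phf11a (0.95). Nearest to Fcgr2b were Pilra (0.98), Lat2 (0.97) and Itgam (0.96), and nearest to Fcgr3 were Lair1 (0.98), Lmo2 (0.98) and Tceal8 (0.97). Fcgr4 was closest to Fgl2 (0.98), Hpse (0.97) and AW112010 (0.96), and Fcer1g to Cd300c2 (0.98), Pid1 (0.97) and Slc7a7 (0.96). For Fcgrt these were Cbr3 (0.94), Fam110b (0.94) and Ctsd (0.93), and for Syk Tbc1d8 (0.94), Ppfibp2 (0.91) and F5 (0.91). No gene stood in the nearest 3 of more than 1 member. Without B1 and C1 all of these remained at 0.86 or above. Between members, r was highest for Fcgr2b with Fcgr3 (0.94, and 0.92 without B1 and C1) and lowest for Fcgr2b with Syk (0.57, and 0.39). For Fcgr1 with Fcgr2b it was 0.63 in all mice and 0.28 without B1 and C1. These values are descriptions over mice that share their libraries.

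Genes that act with these receptors were read from 8 lists, in T-PNU against T-DM1, where 29.8% of all genes were called. Of all genes, 12.4% were called higher in T-PNU mice and 17.4% lower, which are the shares to set beside the counts below. In the list of ITAM signalling, 7 of 24 were higher in T-PNU mice, 1 was lower and 16 were not called, with a median log2 difference of 0.24. The higher ones included Pik3cg (0.65 ± 0.12, adjusted p = 0.00184), a phosphoinositide 3-kinase subunit, the Tec kinase Btk (0.61 ± 0.13, 0.00335) and the adaptor Blnk (0.87 ± 0.20, 0.00388). Src was lower (-0.60 ± 0.17, 0.0143). On the inhibitory side, 8 of 16 were higher, 0 lower and 8 not called (median 0.38), among them Inpp5d, which encodes SHIP1 (0.49 ± 0.14, 0.0138), the ubiquitin ligase Cbl (0.32 ± 0.09, 0.0105) and the ITIM receptor Cd300a (0.74 ± 0.22, 0.0148).

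Of 11 measured receptors that pair with the gamma chain, 3 were higher, 1 lower and 7 not called (median 0.42). The NK receptor Ncr1 was higher (0.71 ± 0.22, adjusted p = 0.0219), as were Ms4a2 (0.42 ± 0.15, 0.0423), the beta chain of the IgE receptor, and the paired receptor Pira6 (0.50 ± 0.18, 0.046). The osteoclast-associated receptor Oscar was lower in T-PNU than in T-DM1 mice (-0.75 ± 0.16, 0.00301) and higher in T-DM1 than in untreated (0.78 ± 0.16, 0.00868) and trastuzumab mice (0.79 ± 0.16, 0.0232). Levels of Oscar and Ms4a2 were low, with mean log2 values of 4.88 and 4.04, where the medians of the samples ran from 8.73 to 8.87. None of 9 measured genes of other immunoglobulin-binding and related proteins, Trim21 and B2m among them, was called (median 0.62). The level of that list ran from -0.76 to 0.91 among T-PNU mice alone.

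Downstream functions were called more on the higher side. Of 23 genes of phagocytosis and the NADPH oxidase, 9 were higher, 1 lower and 13 not called (median 0.23). They included Wipf1 (0.47 ± 0.10, adjusted p = 0.00321) and Dock2 (0.75 ± 0.18, 0.00585), which act on actin, and the engulfment gene Elmo1 (0.56 ± 0.14, 0.0076). Arpc1b was lower (-0.28 ± 0.09, 0.0272). Of 18 complement genes, 6 were higher, 1 lower (C1ra, -0.49 ± 0.18, 0.0423) and 11 not called (median 0.33). The former were led by C1qb, C1qc (0.74 ± 0.20, 0.00873) and C1qa (0.72 ± 0.20, 0.00995), which encode the chains that bind antibody complexes and are also on the macrophage list.

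The list of cytotoxicity genes of NK cells, which kill through FcγRIII, had the highest median of the 8 lists (0.75), with 8 of 12 higher, 0 lower and 4 not called. Several of its genes (among them Prf1, Gzma, Gzmb and Nkg7) are also used by cytotoxic T cells. All 11 T cell markers had a positive difference, with a median of 0.90, though none was called, and the part of T cells in this list was not tested. Klrd1 was higher by 1.01 ± 0.29 (adjusted p = 0.0135), Klrb1c by 0.84 ± 0.25 (0.0154) and the granzyme gene Gzma by 0.79 ± 0.24 (0.0182). Of 14 interferon-gamma response genes, 3 were higher, 0 lower and 11 not called (median 0.45), among them Irf1 (0.63 ± 0.16, 0.0081) and Irgm1 (0.58 ± 0.20, 0.0326). For all lists the median over all genes was 0.03. Against untreated mice, no gene of the 8 lists was called in T-PNU mice, where 0.188% of all genes were, and in T-DM1 mice the called ones were Oscar, Pik3cg (-0.54 ± 0.12, 0.0144) and C1qb.

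**Figure D5:**
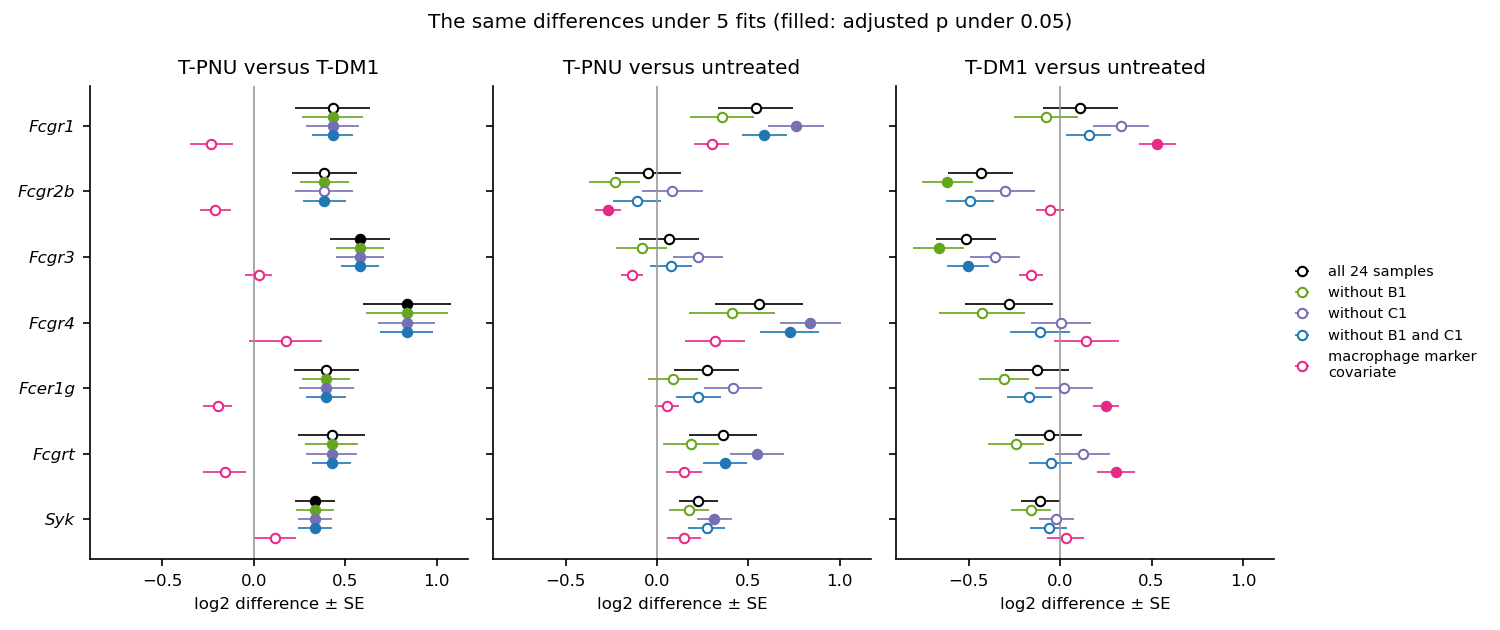
Log2 difference ± SE (x axis) of each gene in 3 comparisons, with all 24 libraries, without untreated B1, without C1, without both, and with the macrophage marker level as a covariate, with filled points where the adjusted p was under 0.05. Without B1 and C1 all 7 genes are filled in T-PNU against T-DM1, and with the covariate none is, while Fcgr1 in T-DM1 against untreated mice is filled with the covariate alone.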

How the data were processed

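Gene expression of CD45+ cells from 24 tumors was analysed from one table of log2 normalized values, which the authors deposited for 16996 genes with a mean count above their minimum. The deposited log2 values came from reads that, per the labels and the study's methods, were aligned with STAR 2.4.2a to mm10 (GRCm38), counted by strand with featureCounts (Subread 1.5.0) and compared with DESeq2, with Picard for quality control. The transformation is not given in the sources used here. No 2 values within a sample are tied, so that counts and depth could not be recovered, no count model was run and no counting interval is given.

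All genes entered one limma model (version 3.58.1, R 4.3.3, moderated with a mean-variance trend) of the 4 groups of 6 mice, 20 residual degrees of freedom and no covariate. Tests were two-sided, p-values were adjusted by Benjamini-Hochberg over all genes, and a gene was called, or passed, at an adjusted p under 0.05. The level of a list in a mouse is given as the average, over the list, of each log2 value minus that gene's mean across mice. Levels per kilobase subtract the log2 of the union of exon lengths in GENCODE M21. Correlations used permutation tests of 100000 resamples, adjusted over 28 relations. Groups were called without overlap where the lowest value of one exceeded the highest of the other. Confidence intervals used the moderated standard errors of limma with the 20 residual degrees of freedom. They are thus slightly wider than its moderated tests imply.

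The genes, lists and tests were chosen with earlier results of these data known. Named were the 7 members, from each list and comparison up to 3 called genes with the smallest adjusted p in each direction, cell type markers, and the 3 genes most correlated with each member. A few genes were named for the level of a marker. Of the list genes, 3 were not measured, and 1 that the rule would name is not reported here. Alternatives were the 20 samples that the study's heatmaps label (a set that lacks B1 and C1), quantile normalization, a filter that kept genes above the median mean, weights per sample, separate fits per comparison, the macrophage marker level as a covariate and each mouse left out in turn. Leaving out untreated B1 and C1 together was chosen after the data were seen. The fits were tested on simulated data. Plots were made in Python 3.11.15 (matplotlib 3.10.9).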

Additional observations from a re-analysis of the deposited data

Results flagged for a closer look

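Within the untreated group, Fcgr4 of mouse C1 (14.46) lay far above the next highest mouse (13.02), a gap of 0.67 of the whole range of the group. Within the T-PNU group, Syk of mouse H1 (13.96) lay above the next highest mouse (13.68), a gap of 0.65 of the range. Both exceeded Dixon's 95% critical value, which chance alone passes in about 1 of 20 groups, and 28 combinations of gene and group were examined. Macrophage marker levels in these mice were 0.86 in C1 and 0.20 in H1, and their part in these values was not tested.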

How the results depend on the processing

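Of 1512 alternative values of the 49 member differences, 1414 kept direction and side of the threshold, 56 newly passed it, 6 no longer passed it and 36 took the other sign, all of the latter in differences that had not passed. Members passing in T-PNU against T-DM1 (3, beside 29.8% of all genes) became 7 with the 20 samples of the heatmaps (which also lack B1 and C1). They became 7 in a fit of the groups compared only and 7 with sample weights. Without untreated B1 and C1 they became 7 (37.5% of all genes), with the macrophage covariate 0 (39.0%), and with 1 mouse left out 2 to 7. In T-PNU against untreated mice (0), they became 4 with 20 samples, 3 with weights, 1 with the covariate, 3 without B1 and C1 and 0 to 4 with 1 mouse left out. In T-DM1 against untreated mice (0) they became 1, 2, 3 and 1 in the same order, and 0 to 2 with 1 mouse left out. In T-PNU against trastuzumab (0) they became 1 with 20 samples, with weights, and without B1 and C1. In T-DM1 against trastuzumab (0) they became 2 in a fit of the groups compared only, 2 with weights, 1 with the covariate and 2 without B1 and C1. The test of any difference (1, beside 18.8% of all genes) gave 7 with 20 samples, 7 with weights and 3 with the covariate (29.2%). It gave 7 without B1 and C1, and 0 to 5 with 1 mouse left out. Where no share of all genes is given, these counts do not set the members apart from genes at large. The cause of these changes was not tested. With the covariate the log2 difference changed sign in T-PNU against T-DM1 for Fcgr1 (-0.23), Fcgr2b (-0.21), Fcer1g (-0.20) and Fcgrt (-0.16), and in T-PNU against untreated mice for Fcgr3 (-0.13). It did so in T-DM1 against untreated mice for Fcgr4 (0.14), Fcer1g (0.25), Fcgrt (0.31) and Syk (0.031), and in T-DM1 against trastuzumab for Fcgr2b (0.10), Fcgr3 (0.023), Fcgr4 (0.013), Fcer1g (0.26) and Fcgrt (0.24). In trastuzumab against untreated mice Fcgr1 (-0.083) and Fcer1g (-0.0087) changed sign. The limits given above for the fit with the covariate hold for these signs too. With 1 mouse left out, the T-PNU against untreated difference ranged from -0.23 to 0.085 for Fcgr2b and from -0.083 to 0.22 for Fcgr3. T-DM1 against untreated ranged from -0.076 to 0.33 for Fcgr1, -0.43 to 0.0033 for Fcgr4, -0.31 to 0.021 for Fcer1g and -0.24 to 0.12 for Fcgrt. Trastuzumab against untreated ranged from -0.13 to 0.28 for Fcgr1, -0.21 to 0.11 for Fcgr2b, -0.22 to 0.091 for Fcgr3 and -0.064 to 0.26 for Fcer1g, and the mean of the antibody groups from -0.094 to 0.23 for Fcer1g and -0.015 to 0.35 for Fcgrt. T-PNU against trastuzumab ranged from -0.11 to 0.058 for Fcgr2b and T-DM1 against trastuzumab from -0.014 to 0.15 for Fcgr1. Quantile normalization and the filter on low means changed no member's call or sign. No paired analysis was possible because the groups compared share no replicate numbers. With depth unknown, the counting error behind a single value cannot be given.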
